A study of Mus musculus with 6 samples.

Results

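The comparison set cells that overexpressed the inwardly rectifying potassium channel Kir2.1 directly against cells that overexpressed the voltage-gated potassium channel Kv1.2, across all genes and with the control libraries left out of the fit. It covered 4 of the 6 samples of the series, 2 labelled Kir2.1 and 2 labelled Kv1.2, and 9832 of the 55573 genes in the raw count table, namely those with at least 1 CPM (counts scaled to a common library size) in at least 2 of these 4 libraries. All mice were male C57BL/6 animals, 3 months old, whose rostral migratory stream (RMS, the path along which young neurons reach the olfactory bulb) had been injected with a lentivirus. The Kir2.1 virus encoded mouse Kir2.1 together with the Ca2+ indicator Twitch-2B, and the Kv1.2 virus encoded human Kv1.2 together with Twitch-2B. The control virus, given here only as a background level, encoded Twitch-2B with a nuclear mCherry and no added channel. The bulbs were taken 9 days after injection, 2 mice were pooled per sample, and Twitch-2B fluorescent cells were sorted, so that a replicate is a pool of animals and the p-values below measure the spread between 2 pools a group.

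Both channels lower excitability by different routes, which is the question behind the direct contrast. Kir2.1 is open at rest and pulls the membrane potential toward the potassium equilibrium, whereas Kv1.2 is shut at rest, opens on depolarization and deepens the hyperpolarization that follows a spike. Microglia are the resident macrophages of the brain, and interferons, cytokines released on infection or by activated lymphocytes, make them express antigen presentation genes and antiviral proteins. The major histocompatibility complex (MHC) class I displays peptides made inside a cell to CD8 T lymphocytes, and class II displays engulfed peptides to CD4 T lymphocytes.

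Antigen presentation genes, interferon-stimulated genes and T and natural killer (NK) lymphocyte genes lay lower in the Kir2.1 samples than in the Kv1.2 samples. The MHC class II genes H2-Aa and Cd74 averaged 285 and 78.9 CPM in Kir2.1 against 5094 and 1385 CPM in Kv1.2, and the antiviral membrane protein gene Ifitm3 averaged 504 CPM in Kir2.1 against 1487 CPM in Kv1.2. The microglial genes that mark the cell type itself were split evenly, with 5 of 20 above and 5 of 20 below in Kir2.1. Genes of border-associated macrophages, the macrophages of the meninges and perivascular spaces, lay higher in Kir2.1, most of all in its replicate 1. No gene passed the adjusted threshold in edgeR's quasi-likelihood test, so all of these are descriptions of 2 pools against 2 pools. With DESeq2, 5 of 9 class II, 5 of 29 interferon-stimulated and 5 of 7 lymphocyte genes were called lower, against 171 of all 9832 genes. It called 3 of 8 macrophage genes higher, against 270 of all genes. With edgeR's likelihood ratio test 3, 1, 3 and 1 genes of these lists were called, against 80 lower and 146 higher of all genes. The filter fixed the direction of 4 lymphocyte and 2 interferon-stimulated genes, tested only through Kv1.2. The same holds for 1 macrophage and 1 interferon-stimulated gene, tested only through Kir2.1.

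Library totals in the 4 samples ran between 8871595 and 13632970 counts. Kir2.1 replicate 1 stood apart from the other 3 libraries: thinned to a common depth of 8871595 counts it held 28028 detected genes, against 18970 in Kir2.1 replicate 2, and 15225 and 16554 in the Kv1.2 libraries. Across the 9832 genes the Pearson correlation of log2(CPM + 1) was 0.589 between the Kir2.1 replicates and 0.651 between the Kv1.2 replicates, and it ran between 0.570 and 0.593 for the 4 pairs of a Kir2.1 and a Kv1.2 sample. The Kv1.2 replicates were therefore closer to each other than to either Kir2.1 sample, whereas the correlation of the Kir2.1 replicates lay within the range of the pairs between groups. Of the genes at 10 CPM or more in either replicate, 19.6% (1479 of 7551) in Kir2.1 and 21.3% (1523 of 7163) in Kv1.2 were under 1 CPM in the other replicate. Mitochondrially encoded genes took between 1.48% and 1.89% of counts in these 4 samples, against 10.9% and 22.9% in the control samples.

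The labels call the sorted cells neurons, and the marker genes did not bear that out in these 4 libraries. The early neuronal genes Dcx, which encodes doublecortin, and Tubb3, a neuronal tubulin, had 0 to 0.38 CPM in Kir2.1 and 0 to 0.25 CPM in Kv1.2, against up to 95.1 CPM of Dcx in the control samples. Summed over the 18 neuroblast and immature neuron genes the level was 154 and 103 CPM in Kir2.1, 48.1 and 154 CPM in Kv1.2, and 445 and 3351 CPM in control. Of these 18 genes, 6 and 11 had no count in the Kir2.1 samples, and 13 and 6 had none in the Kv1.2 samples. The 20 genes that define microglia summed to 55188 and 106011 CPM in Kir2.1, 111099 and 105450 CPM in Kv1.2, and 74026 and 10874 CPM in control, with every one of them detected in every sample. The gene with the most counts in each of the 4 libraries was Cst3, the secreted protease inhibitor cystatin C. Levels below are therefore those of a sorted sample rich in microglial RNA and poor in neuronal RNA, and fewer cells of a type and less RNA per cell cannot be told apart in it.

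The genes of the overexpressed channels gave no clear check of the labels. Kcnj2, the gene of Kir2.1 (chr11:111066164-111076821, GRCm38), had 6.12 and 28.2 CPM in the Kir2.1 samples, 17.6 and 0.0825 CPM in the Kv1.2 samples, and 9.96 and 13.7 CPM in control. The groups overlapped, with the lowest level in Kv1.2 replicate 2 and the highest in Kir2.1 replicate 2. Its log2 fold change was 0.96 ± 2.58 (SE, edgeR adjusted p = 0.999). It turned to -0.50 without Kir2.1 replicate 2 and to -0.05 without Kv1.2 replicate 2. Without Kv1.2 replicate 1, which left 0.0825 CPM in Kv1.2, it rose to 7.52. Kcna2, the gene of Kv1.2 (chr3:107101146-107115005), had 3 and 1 counts in Kir2.1, 24 and 5 counts in Kv1.2, and 3 and 451 counts in control. Both Kv1.2 samples lay above both Kir2.1 samples and far below the second control sample, and the gene was not tested because Kv1.2 replicate 1, at 1.91 CPM, was the single one of the 4 samples to reach 1 CPM. The Kv1.2 virus carried a human sequence, so counts on mouse Kcna2 are no direct check of it. In these counts the groups rest on the labels, and Kir2.1 and Kv1.2 stand below for the libraries so labelled.

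With edgeR's quasi-likelihood test, 0 of 9832 genes (0%) had a Benjamini-Hochberg adjusted p under 0.05, and the smallest adjusted p was 0.574. Unadjusted p-values under 0.05 were reached by 823 genes, of which 477 (4.85%) had higher and 346 (3.52%) lower levels in Kir2.1, and uniform p-values would give 491.6. Both Kir2.1 samples lay above both Kv1.2 samples for 2033 genes (20.7%) and below both for 1875 genes (19.1%). These shares are the background for every list below, where "above" and "below" mean that the 2 groups did not overlap. An exact permutation test of 2 samples against 2 cannot give a p under 0.33. The other tools called more genes on the same counts, DESeq2 441 (270 higher in Kir2.1, 171 lower) and edgeR's likelihood ratio test 226 (146 higher, 80 lower), with 169 genes in common, which is 38.3% of the DESeq2 genes and 74.8% of the likelihood ratio genes. Of the genes tested, 558 reached 1 CPM in both Kir2.1 samples and in neither Kv1.2 sample, and 351 the reverse, so that their direction follows from the filter. The same holds for the list members among them. The median log2 fold change of all genes was 0.07, and it was 0.28 when counts were scaled to library size alone.

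The direction of the differences varied with expression level. Of the 425 genes with a mean of 300 CPM or more, 192 lay below and 45 above, with a median log2 fold change of -0.32. Among the 3070 genes with a mean of 10 to 30 CPM the order was opposite, with 435 below, 708 above and a median of 0.36. Restricted to the 3241 genes with at least 10 CPM in all 4 samples, 115 genes were lower and 59 higher in Kir2.1 at an unadjusted p under 0.05. When single samples were left out, the minimum of 1 CPM in 2 samples was applied again, and between 8346 and 8825 genes were tested. With 1 Kir2.1 sample left, a gene at 1 CPM or more in Kir2.1 alone could not pass. With 1 Kv1.2 sample left the reverse held. These fits therefore cover different genes, and list medians given below without single samples cover the members that passed. The median of all genes was -0.048 and -0.059 without Kir2.1 replicates 1 and 2. It was 0.13 and 0.17 without Kv1.2 replicates 1 and 2.

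**Figure D1:**
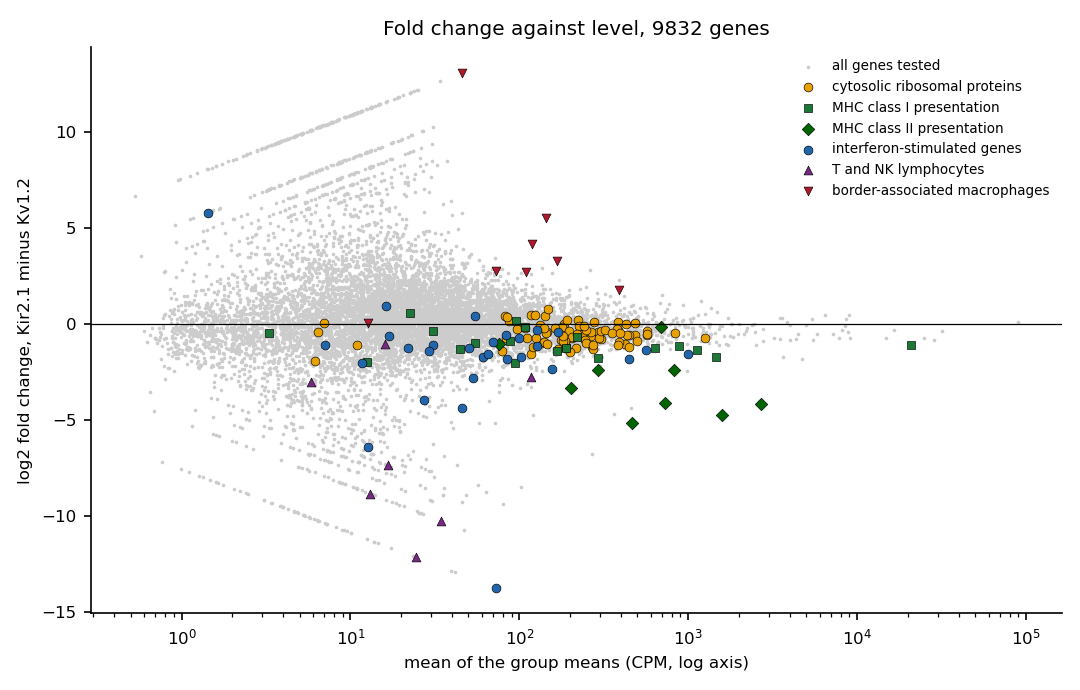
Each point is one of the 9832 genes, with its mean level in CPM on a log axis and its log2 fold change, Kir2.1 minus Kv1.2, on the vertical axis; 6 lists are coloured. The straight streaks at both edges are genes with 0 or a few counts in one group, whose fitted fold depends on the prior count. MHC class II genes (diamonds) lie below 0 at levels between 75.8 and 2690 CPM, and most macrophage genes (downward triangles) lie above 0.

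MHC class II genes lay far lower in Kir2.1. Of 12 genes on the list 9 were tested, 8 of them lay below, none above, 4 were lower at an unadjusted p under 0.05, and the median log2 fold change was -3.31. H2-Aa, the alpha chain of the I-A class II molecule (chr17:34282744-34287823), had 167 and 403 CPM in Kir2.1, 7889 and 2299 CPM in Kv1.2, and 1.37 and 20.8 CPM in control. Both Kv1.2 samples were high, replicate 1 more so, and the control samples were lower than every Kir2.1 sample. Its log2 fold change was -4.16 ± 0.83 (SE, edgeR unadjusted p = 0.00464).

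H2-Ab1, which encodes the beta chain of the same molecule, had 26.2 and 207 CPM in Kir2.1 against 4820 and 1326 CPM in Kv1.2. Cd74, the invariant chain that guards the class II groove until peptide is loaded, had 50.4 and 107 CPM in Kir2.1 against 2262 and 507 CPM in Kv1.2. H2-DMa, part of the exchange factor that loads the peptide, had 185 and 343 CPM in Kir2.1 against 2026 and 757 CPM in Kv1.2. In each of these genes Kv1.2 replicate 1 was the highest sample and Kir2.1 replicate 1 the lowest, and the fold changes were -4.72 ± 1.28 for H2-Ab1, -4.13 ± 0.91 for Cd74 and -2.40 ± 0.62 for H2-DMa. H2-Eb1, the I-E beta chain, was at 1.24 and 50.4 CPM in Kir2.1 against 1580 and 235.7 CPM in Kv1.2. The exception was Cd86, a costimulatory ligand of T cells, whose groups overlapped at 712 and 612 CPM in Kir2.1 against 940.1 and 512 CPM in Kv1.2. Ciita, the activator that class II transcription depends on, was not tested, with 0.0956 and 0.181 CPM in Kir2.1 and 7.79 and 0.0825 CPM in Kv1.2.

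Class II promoters hold a Y box, an inverted CCAAT element bound by NF-Y, close to the start of transcription. The RefSeq promoter window of H2-Aa (chr17:34287774-34288073, minus strand, GRCm38.p6, 250 bases before to 50 after the gene's start) is shown because this gene had the highest class II level, with the Y box letters CTGATTGG in capitals.
H2-Aa: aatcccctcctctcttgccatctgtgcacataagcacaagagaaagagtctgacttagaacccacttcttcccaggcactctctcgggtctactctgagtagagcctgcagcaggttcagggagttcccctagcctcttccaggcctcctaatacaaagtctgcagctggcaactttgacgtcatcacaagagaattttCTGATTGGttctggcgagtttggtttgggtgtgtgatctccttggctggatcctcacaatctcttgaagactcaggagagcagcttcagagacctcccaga
The motif starts at -51 on the gene's strand. Searched on both strands, it was in 3 of the 6 class II genes with a window (H2-Aa, H2-Eb1 and H2-Oa), in 6.42% of the 6825 tested genes with a window and in 4.10% of all 32851 RefSeq windows.

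MHC class I genes lay lower in Kir2.1 by a smaller margin. All 19 genes of the list were tested, 10 lay below and none above, 5 were lower at an unadjusted p under 0.05, and the median log2 fold change was -1.17. H2-K1, a classical class I heavy chain (chr17:33996017-34000347), had 559 and 690.5 CPM in Kir2.1, 1742 and 1501 CPM in Kv1.2, and 119 and 70.1 CPM in control. H2-D1, the other classical heavy chain on the list, had 525 and 838 CPM in Kir2.1 against 2439 and 2044 CPM in Kv1.2. H2-T23, which encodes the nonclassical molecule Qa-1, had 146 and 118 CPM in Kir2.1 against 519 and 379.8 CPM in Kv1.2. The groups did not overlap in any of the 3 genes, with log2 fold changes of -1.38 ± 0.28 for H2-K1, -1.72 ± 0.34 for H2-D1 and -1.76 ± 0.36 for H2-T23.

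B2m, the light chain shared by class I molecules, was among the most abundant transcripts, at 8641 and 17958 CPM in Kir2.1, 29070 and 27553 CPM in Kv1.2, and 11718 and 2122 CPM in control. Its groups did not overlap, with a log2 fold change of -1.09 ± 0.42 (edgeR unadjusted p = 0.0505). Psmb8, a subunit of the immunoproteasome that cuts peptides for class I, had 479 and 603 CPM in Kir2.1 against 1452 and 981.5 CPM in Kv1.2. The peptide transporter genes Tap1 and Tap2 and the class I activator Nlrc5 overlapped between the groups. Reads of H2-Q6 and H2-Q7, and of class I heavy chains in general, can be shared between near-identical copies, so that the split of counts among them is uncertain.

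The window of H2-K1 that holds the class I elements (chr17:34000298-34000597, minus strand) is shown for comparison with the class II window, with the class I kappa B site (first run of capitals) and an inverted Y box, CCAATCAG, in capitals.
H2-K1: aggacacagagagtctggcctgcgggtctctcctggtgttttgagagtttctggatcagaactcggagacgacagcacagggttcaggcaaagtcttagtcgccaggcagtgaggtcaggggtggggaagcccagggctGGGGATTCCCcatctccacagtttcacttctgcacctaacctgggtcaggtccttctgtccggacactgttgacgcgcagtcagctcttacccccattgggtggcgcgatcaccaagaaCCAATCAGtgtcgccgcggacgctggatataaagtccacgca
The kappa B letters start at -111 and the Y box at 8. RefSeq has 2 windows for this gene. Of the 17 class I list genes with a window, the kappa B letters were in 4 (H2-K1, H2-D1, H2-Q6 and H2-Q7), against 0.205% of tested genes with a window and 0.107% of all windows, and the Y box was in 7.

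Interferon-stimulated genes lay lower in Kir2.1 in their majority. Of 29 tested, 18 lay below and 1 above, 8 were lower and 1 higher at an unadjusted p under 0.05, and the median log2 fold change was -1.38, or -0.72 without Kv1.2 replicate 1. Summed over the 32 listed genes, the level was 1883 and 2004 CPM in Kir2.1, 6136 and 4406 CPM in Kv1.2, and 1491 and 1825 CPM in control, so that the Kv1.2 samples were the highest. Ifitm3, an interferon-induced membrane protein that blocks virus entry (chr7:141009586-141010770), had 465 and 544 CPM in Kir2.1, 1460 and 1514 CPM in Kv1.2, and 352 and 1073 CPM in control. The 2 values of each group were close, and the log2 fold change was -1.56 ± 0.27 (edgeR unadjusted p = 0.00239). Stat2, a subunit of the transcription factor that carries the type I interferon signal (chr10:128270559-128292849), had 3.16 and 5.33 CPM in Kir2.1 against 103 and 71.7 CPM in Kv1.2, a log2 fold change of -4.36 ± 1.02.

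Zbp1, a sensor of Z-form nucleic acids, had no count in either Kir2.1 sample and 239 and 51.3 CPM in the Kv1.2 samples. Against a floor of 3 counts over the Kir2.1 group it was at least 1054-fold lower in Kir2.1, or 368-fold with Kv1.2 replicate 2 alone. Ifi27l2a, an interferon-induced mitochondrial protein gene, had 241 and 146 CPM in Kir2.1 against 648 and 738 CPM in Kv1.2, and Rtp4, an interferon-induced chaperone of receptors, had 292 and 330.1 CPM against 1100 and 517 CPM. The single gene above was Rsad2, which encodes the antiviral enzyme viperin, at 1.15 and 4.51 CPM in Kir2.1 against 0 and 0.0825 CPM in Kv1.2. With 62 counts against 1, the ratio was 71.2 with a 95% exact binomial counting interval of 12.3 to 2855. Of the 29 tested genes, 1 reached 1 CPM in both Kir2.1 samples and in neither Kv1.2 sample, and 2 the reverse. Rsad2 and Zbp1 are of this kind, so that the filter fixed their direction. Ifit1, Ifit2 and Ifit3, textbook members of the list, overlapped between the groups.

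**Figure D2:**
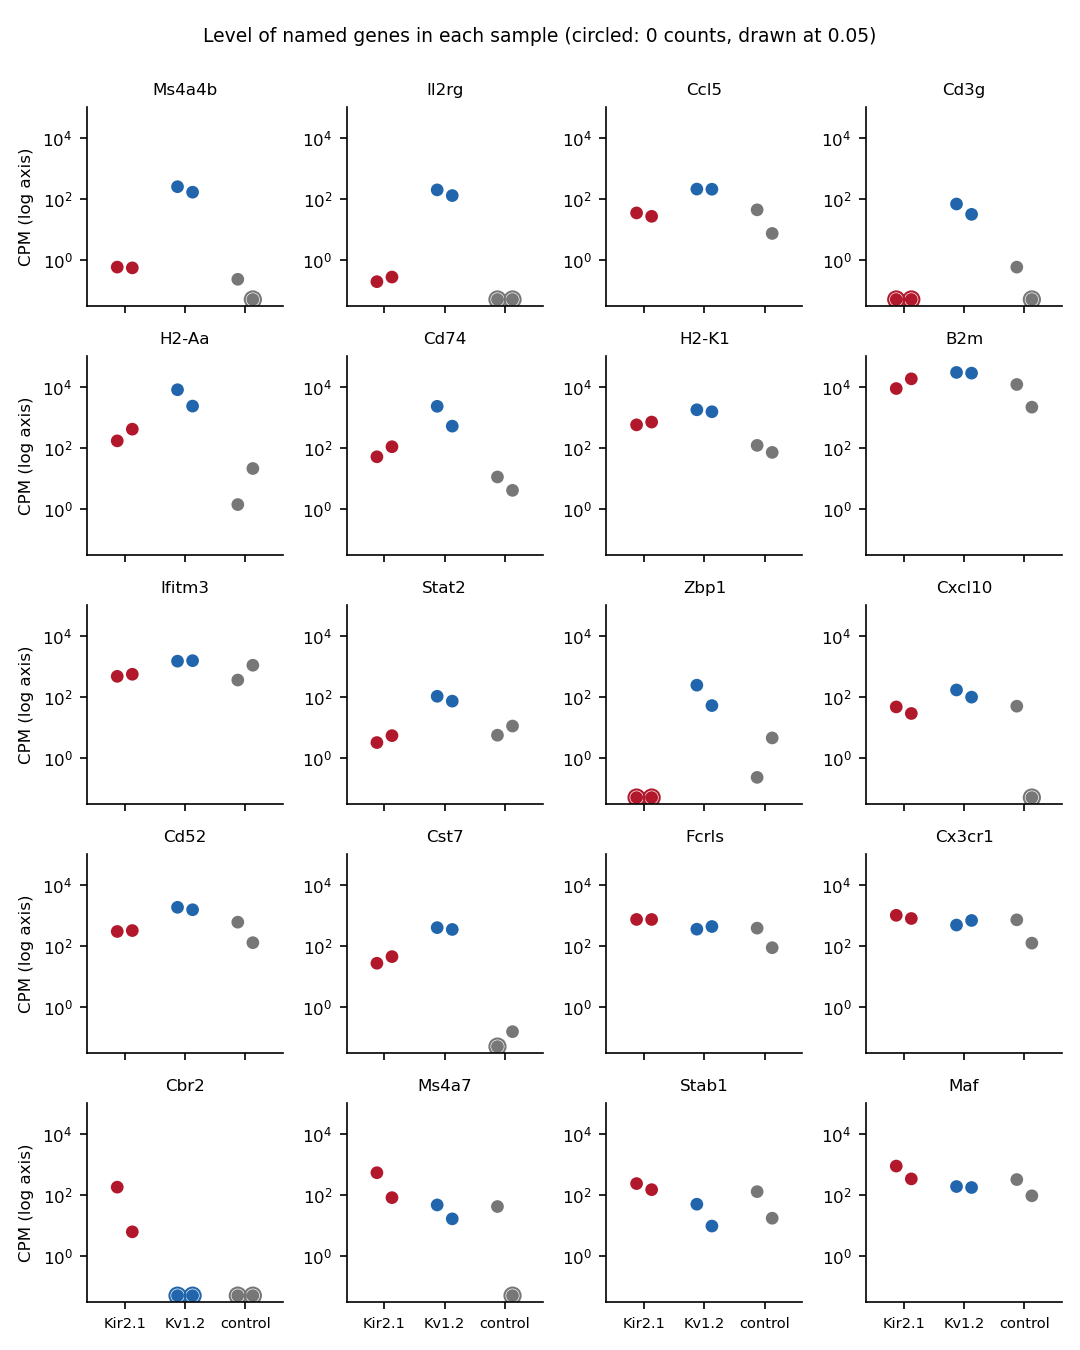
Level in CPM (log axis) of 20 genes in each sample, Kir2.1 in red, Kv1.2 in blue and control in grey, with samples of 0 counts circled and drawn at 0.05. The first 14 panels, from Ms4a4b to Cst7, show both Kir2.1 samples under both Kv1.2 samples, and the last 6, from Fcrls to Maf, show the opposite order.

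The interferon-stimulated response element (ISRE, searched as GAAA, any 2 bases and GAAA) is the site of the transcription factor that carries the type I interferon signal, and the gamma-activated site (GAS, letters TTCNNNGAA) that of the interferon gamma signal. The windows of Ifitm3 (chr7:141010695-141010994, minus strand), Stat2 (chr10:128270248-128270547, plus strand) and Cxcl10 (chr5:92348840-92349139, minus strand) are shown as 3 arrangements of this element, with ISRE, GAS and Y box letters in capitals.
Ifitm3: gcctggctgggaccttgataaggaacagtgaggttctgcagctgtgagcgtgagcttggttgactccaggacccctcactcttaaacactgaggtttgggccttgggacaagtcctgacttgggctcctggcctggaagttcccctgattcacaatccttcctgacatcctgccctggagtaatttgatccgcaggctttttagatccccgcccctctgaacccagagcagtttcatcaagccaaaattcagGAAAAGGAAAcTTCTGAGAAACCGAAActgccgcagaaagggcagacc
Stat2: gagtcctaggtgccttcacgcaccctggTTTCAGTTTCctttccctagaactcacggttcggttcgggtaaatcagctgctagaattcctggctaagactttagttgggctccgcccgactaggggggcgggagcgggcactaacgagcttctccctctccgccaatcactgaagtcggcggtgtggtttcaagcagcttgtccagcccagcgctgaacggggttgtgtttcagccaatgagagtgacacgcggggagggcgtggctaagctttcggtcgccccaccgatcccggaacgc
Cxcl10: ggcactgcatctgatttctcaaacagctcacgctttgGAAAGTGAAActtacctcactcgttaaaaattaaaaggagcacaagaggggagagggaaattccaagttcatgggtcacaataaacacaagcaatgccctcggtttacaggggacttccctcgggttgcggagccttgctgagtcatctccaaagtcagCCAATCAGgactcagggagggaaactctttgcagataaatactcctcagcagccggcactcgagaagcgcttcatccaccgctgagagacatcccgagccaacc
Ifitm3 holds 2 ISRE matches, starting at 2 and 19, and a GAS match starting at 13 that overlaps the second of them. In Stat2 the ISRE starts at -222 on the opposite strand, and in Cxcl10 it starts at -213, with an inverted Y box at -54. Searched on both strands, the ISRE letters were in 14 of the 21 interferon-stimulated list genes with a window (66.7%), in 4.22% of tested genes with a window and in 3.44% of all windows. The list is defined by response to interferon, so a high share of this element describes the list and not the contrast. None of the 13 activated microglia genes with a window held any of the 4 motifs.

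The guanylate-binding proteins and immunity-related GTPases, interferon-induced enzymes that attack vacuoles of intracellular pathogens, included members with large gaps and members with none. Of 13 tested, 6 lay below and none above, 3 were lower at an unadjusted p under 0.05, and the median log2 fold change was -1.75, or -0.60 without Kv1.2 replicate 1. Tgtp2 had 4.69 and 50.4 CPM in Kir2.1 against 985 and 408 CPM in Kv1.2 (log2 fold change -4.66 ± 1.30), Gbp9 had 1.34 and 2.35 CPM against 122 and 36.6 CPM, and Gbp3 had 5.83 and 20.8 CPM against 82.2 and 104.9 CPM. Irgm1, a regulator of the family, overlapped at 172.5 and 167 CPM in Kir2.1 against 339.7 and 157 CPM in Kv1.2. Tgtp1 and Tgtp2 are near-identical copies and Gbp9 overlaps Gbp4 and Gbp8 on the same strand, so counts of single members are uncertain. All 8 members with a window held an ISRE match.

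Among secreted immune signals some genes lay lower in Kir2.1 and most overlapped. Of 19 tested chemokine and cytokine genes 6 lay below and 1 above, 4 were lower at an unadjusted p under 0.05, and the median log2 fold change was -0.34, or 0.01 without Kv1.2 replicate 1, -0.14 without Kv1.2 replicate 2 and -0.18 without Kir2.1 replicate 1. Ccl12, a monocyte-attracting chemokine, had 1677 and 2449 CPM in Kir2.1, 9419 and 5332 CPM in Kv1.2, and 1569 and 315 CPM in control (log2 fold change -1.84 ± 0.40). Ccl5, made by lymphocytes and activated myeloid cells, had 34.0 and 26.4 CPM in Kir2.1 against 206 and 203 CPM in Kv1.2 (-2.76 ± 0.48). Cxcl10, which attracts activated T cells, had 46.4 and 28.3 CPM against 166 and 97 CPM, and Cxcl9, of the same receptor, 0.383 and 0.181 CPM against 107 and 2.97 CPM. Cxcl9 was the 1 tested gene of this list that passed the minimum through the Kv1.2 samples only, so that the filter fixed its direction. Ccl6 and Il1a, an interleukin 1 gene, overlapped between the groups, at 774 and 623 CPM of Ccl6 in Kir2.1 against 600 and 759 CPM in Kv1.2.

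Complement genes diverged within the list. Of 12 tested, 5 lay below and 2 above, with 2 lower and 1 higher at an unadjusted p under 0.05 and a median of -0.48, which was -0.19 without Kir2.1 replicate 1 and -1.39 without Kir2.1 replicate 2. C4b, an early component of the cascade, had 5.93 and 11.2 CPM in Kir2.1 against 351 and 111 CPM in Kv1.2, a log2 fold change of -4.75 ± 0.87. C3, the central component, had 0.191 and 0.0903 CPM against 7.79 and 29.2 CPM, which is 3 counts against 452, a ratio of 131 lower in Kir2.1 with a counting interval of 44.6 to 639. Of the 12 genes, C3 passed the minimum through the Kv1.2 samples only and 1 other through the Kir2.1 samples only. The filter fixed the direction of both. C1qb, the microglial recognition subunit, had 13735 and 27248 CPM in Kir2.1, 38668 and 34918 CPM in Kv1.2, and 20065 and 3201 CPM in control. Its log2 fold change was -0.84 ± 0.40, and it was -0.42 without Kir2.1 replicate 1 and -1.39 without Kir2.1 replicate 2.

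T and NK lymphocyte genes were low in Kir2.1. Of the 18 listed genes 7 were tested, of which 5 lay below and none above, all 5 at an unadjusted p under 0.05, and the median log2 fold change was -7.36. Of the 7, 4 reached 1 CPM in both Kv1.2 samples and in neither Kir2.1 sample, so that the filter fixed their direction and the count and median describe the members that passed and no more. The median was -2.88 with 1 CPM required in at least 3 samples and -2.69 with 1 CPM in all 4. It was -2.02 without Kv1.2 replicate 1, -3.35 without Kv1.2 replicate 2 and -11.45 without Kir2.1 replicate 1. Each of these medians covers the members that passed the minimum in that setting, which need not be the same 7 genes. The list summed to 63.5 and 27.8 CPM in Kir2.1, 724 and 383 CPM in Kv1.2, and 45.7 and 26.7 CPM in control. Cd3g, a chain of the T cell receptor complex, had 0 counts in both Kir2.1 samples and 66.7 and 30.6 CPM in Kv1.2, at least 352-fold lower in Kir2.1 against the floor of 3 counts over the group, or 220-fold with Kv1.2 replicate 2 alone. Nkg7, of cytotoxic granules, had 0.0956 and 0 CPM in Kir2.1 against 112 and 26.6 CPM in Kv1.2. Cd3d, another chain of the receptor complex, had 0.0956 and 0 CPM against 29.1 and 23.2 CPM. Klrd1 and Lck overlapped, at 20.9 and 0 CPM of Klrd1 in Kir2.1 against 0 and 43.4 CPM in Kv1.2.

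The lymphocyte signal was not even between the Kv1.2 pools. Trac, the constant region of the T cell receptor alpha chain, had 140.3 CPM in Kv1.2 replicate 1 and no count in replicate 2, and the granzyme gene Gzma had 99.4 and 0.0825 CPM. Kv1.2 replicate 1 was also the sample with the highest class II level, whereas Ifitm3 was as high in replicate 2. Among the genes with the smallest p, Ms4a4b, a T and NK cell membrane protein gene (chr19:11443553-11467055), had 0.574 and 0.542 CPM in Kir2.1, 246 and 163 CPM in Kv1.2, and 0.229 and 0 CPM in control (log2 fold change -8.49 ± 0.72, edgeR unadjusted p = 0.000107). Il2rg, the common gamma chain of cytokine receptors (chrX:101264378-101268255), had 0.191 and 0.271 CPM in Kir2.1 against 193 and 126 CPM in Kv1.2, and 0 in both control samples. Ms4a4b and Il2rg passed the minimum through the Kv1.2 samples only, so that the filter fixed their direction. The lymphocyte markers moved with the class II and interferon lists, and their part in those lists' differences was not tested.

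Other immune surface and secreted proteins were among the 15 genes with the smallest p of those lower in Kir2.1, at 10 CPM or more in both Kv1.2 samples and with groups that did not overlap. Ly6a, a membrane protein induced by interferon, had 24.8 and 59.6 CPM in Kir2.1 against 998 and 747 CPM in Kv1.2 (log2 fold change -4.37 ± 0.58), and the other tested LY6 genes, Ly6e and Ly6i, also lay below, 3 of 3 in all. Il18bp, the secreted inhibitor of interleukin 18 that interferon gamma induces, had 4.02 and 5.78 CPM in Kir2.1, 749 and 322 CPM in Kv1.2, and 17.6 and 19.8 CPM in control. Its log2 fold change was -6.77 ± 0.68, and it was the 1 gene past the adjusted threshold among the 5110 with at least 1 CPM in all 4 samples (adjusted p = 0.0210). Gpr18, a lymphocyte and microglial receptor gene, had 0 counts in both Kir2.1 samples and 72.7 and 93.6 CPM in Kv1.2, at least 595-fold lower. Gpr18 and Ly6i passed the minimum through the Kv1.2 samples only, so that the filter fixed their direction. Il18bp lies opposite to Numa1, and counting was not strand-aware, so reads of the pair cannot be told apart.

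The same 15 genes included metabolic genes. Galt, of galactose metabolism, had 0.478 and 0.181 CPM in Kir2.1, 102 and 126 CPM in Kv1.2, and 37.0 and 40.0 CPM in control. Mdh2, mitochondrial malate dehydrogenase, had 69.4 and 44.4 CPM in Kir2.1 against 328 and 298 CPM in Kv1.2 (log2 fold change -2.46 ± 0.44). Tefm, a mitochondrial transcription elongation factor, had 0 and 0.0903 CPM in Kir2.1 against 120.2 and 68.5 CPM in Kv1.2, where 1 count stood against 2344, a ratio of 2042 lower with a counting interval of 366 to 80701. Phf11a and Gtpbp8 completed these 15 genes, with 3 counts each in Kir2.1. Galt, Tefm, Phf11a and Gtpbp8 passed the minimum through the Kv1.2 samples only, so that the filter fixed their direction. Galt and Gtpbp8 each overlap a gene on the opposite strand, so that their counts may hold reads of that gene.

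Genes of activated, lipid-handling microglia lay lower in Kir2.1. Of 17 tested, 12 lay below and none above, 6 were lower at an unadjusted p under 0.05, and the median log2 fold change was -1.66. It was -0.74 and -0.99 without Kv1.2 replicates 1 and 2, and -1.0 without Kir2.1 replicate 1. Cst7, the cathepsin inhibitor cystatin F that activated microglia switch on (chr2:150570415-150578944), had 26.8 and 44.1 CPM in Kir2.1, 392 and 341.5 CPM in Kv1.2, and 0 and 0.154 CPM in control. The groups were well apart, with a log2 fold change of -3.37 ± 0.47 (edgeR unadjusted p = 0.00096). Cd52, a short surface glycoprotein of leukocytes, had 294 and 315 CPM in Kir2.1, 1814 and 1510 CPM in Kv1.2, and 591.5 and 126 CPM in control, a log2 fold change of -2.45 ± 0.28. Ch25h, the enzyme that makes 25-hydroxycholesterol, had 0 counts in both Kir2.1 samples and 27.9 and 65.5 CPM in Kv1.2, at least 333-fold lower, or 200-fold with Kv1.2 replicate 1 alone. Of the 17 genes, 2 passed the minimum through the Kv1.2 samples only, Ch25h among them, so that the filter fixed their direction.

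Several abundant members of the activated list had smaller gaps. Lyz2, lysozyme, had 2213 and 2634 CPM in Kir2.1 against 4020 and 4065 CPM in Kv1.2 (log2 fold change -0.74 ± 0.25). Apoe, the lipid carrier apolipoprotein E, had 4013 and 7742 CPM against 11612 and 7821 CPM. Trem2, the receptor through which microglia sense lipids, overlapped at 742 and 1467 CPM in Kir2.1 against 1867 and 1291 CPM in Kv1.2. Cd52 lies opposite to Crybg2, with the same limit on strand.

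The genes that define microglia showed no common direction. Of 20 tested, 5 lay above and 5 below, 1 was higher and 1 lower at an unadjusted p under 0.05, and the median log2 fold change was 0.12, which turned to -0.41 without Kir2.1 replicate 2. Fcrls, an Fc receptor-like gene of microglia, had 727 and 725 CPM in Kir2.1, 349 and 427 CPM in Kv1.2, and 377.5 and 86.3 CPM in control (0.90 ± 0.29). Cx3cr1, the fractalkine receptor, had 993 and 781 CPM in Kir2.1 against 477 and 673 CPM in Kv1.2, and P2ry12, the receptor by which microglia follow nucleotides, overlapped at 5560 and 13168 CPM against 6488 and 8975 CPM. Aif1, which encodes the actin-binding protein IBA1, lay the other way, at 1890 and 2030 CPM in Kir2.1 against 3892 and 3307 CPM in Kv1.2 (-0.88 ± 0.25).

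**Figure D3:**
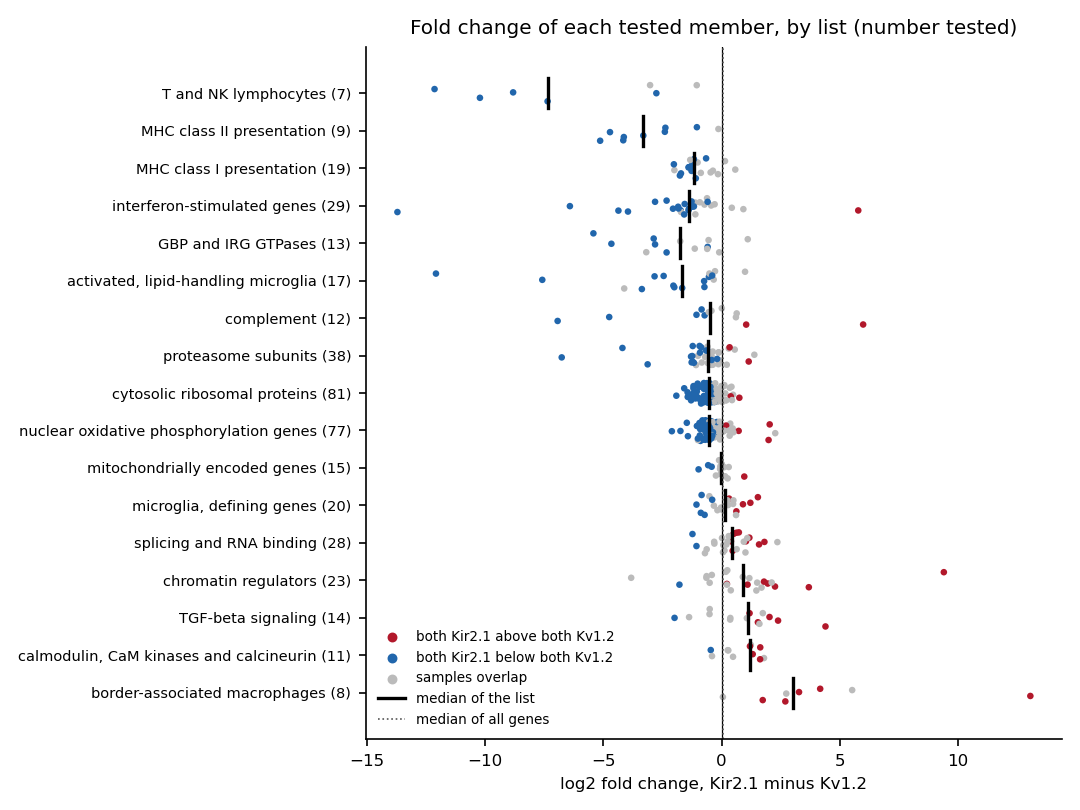
Log2 fold change, Kir2.1 minus Kv1.2, of every tested gene in 17 lists, with the number tested in brackets, red for genes whose Kir2.1 samples both lie above the Kv1.2 samples, blue for both below and grey for overlap. Black bars mark each list's median, which runs between -7.36 for T and NK lymphocyte genes and 3.01 for border-associated macrophage genes, around a median of 0.07 for all genes (dotted line).

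Border-associated macrophage genes were the list furthest in the other direction. Of 12 listed genes 8 were tested, 5 lay above and none below, 4 were higher at an unadjusted p under 0.05, and the median log2 fold change was 3.01. The list summed to 3164 and 669 CPM in Kir2.1, 321 and 262 CPM in Kv1.2, and 530.4 and 147 CPM in control, so that most of it came from Kir2.1 replicate 1, without which the median was 1.22. Cbr2, a carbonyl reductase of these macrophages, had 178 and 6.14 CPM in Kir2.1 and 0 counts in Kv1.2 and control, at least 738-fold higher than in Kv1.2. This bound rested on Kir2.1 replicate 1, and from replicate 2 alone it was 50.6-fold. Cbr2 was the 1 tested gene of the list that passed the minimum through the Kir2.1 samples only, so that the filter fixed its direction. Ms4a7, a membrane protein gene of macrophages, had 528 and 80.7 CPM in Kir2.1 against 46.6 and 16.3 CPM in Kv1.2 (log2 fold change 3.28 ± 1.12). Stab1, a scavenger receptor, had 233 and 147 CPM against 49.2 and 9.48 CPM (2.7 ± 0.94), and Maf, a transcription factor of tissue macrophages, 872 and 332 CPM against 187 and 173 CPM (1.74 ± 0.54). Mrc1, the mannose receptor and the usual marker of this cell type, was at 566 CPM in Kir2.1 replicate 1, 0 in replicate 2, and 0.159 and 12.1 CPM in Kv1.2. Kir2.1 replicate 1 was also the library with the most detected genes.

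The 15 genes with the smallest p among those higher in Kir2.1 and at 10 CPM or more in both Kir2.1 samples had varied functions. Abca1, the transporter that exports cholesterol (chr4:53030787-53159895), had 757 and 533 CPM in Kir2.1, 173 and 91.4 CPM in Kv1.2, and 423 and 133 CPM in control, a log2 fold change of 2.29 ± 0.47 (edgeR unadjusted p = 0.00503). Dock4, an activator of the small GTPase Rac, had 343 and 192 CPM in Kir2.1 against 52.5 and 33.9 CPM in Kv1.2 (2.63 ± 0.55), and Arhgap5, which encodes a GTPase-activating protein, had 434 and 351 CPM against 76.3 and 132 CPM (1.91 ± 0.44). These 3 genes were present in all 6 libraries. Ms4a4a, a macrophage membrane protein gene, had 95.2 and 40.6 CPM in Kir2.1 and 0 counts in the other 4 libraries, at least 553-fold higher than in Kv1.2 or 335-fold from Kir2.1 replicate 2 alone, while its neighbours in the MS4A family Ms4a4b and Ms4a4c lay the other way.

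The other 11 of these 15 genes were at 27.2 to 96.4 CPM in Kir2.1 and at 0 to 12 counts over both Kv1.2 samples. They were Mib1, Mcts2, Acadm, Atl2, Smarcd2, Phf7, Top2b, Senp1, Tmc7, Qars and Clec12a. Like Ms4a4a, all 11 were under 1 CPM in both Kv1.2 samples, so that the filter fixed their direction. Acadm, a dehydrogenase of medium-chain fatty acids, had 78.2 and 45.6 CPM in Kir2.1 and 0.0795 and 0 CPM in Kv1.2, but 91.9 and 88.7 CPM in control. Top2b, a topoisomerase of nondividing cells, and Mib1, a ligase of the Notch pathway, were likewise present in both control samples. Mcts2 is a retrocopy and may share reads with its parent gene, and Top2b and Senp1 have genes on the opposite strand. Counts of 0 in both samples of a group fell in Kir2.1 for 56 of the 9832 genes and in Kv1.2 for 149.

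**Figure D4:**
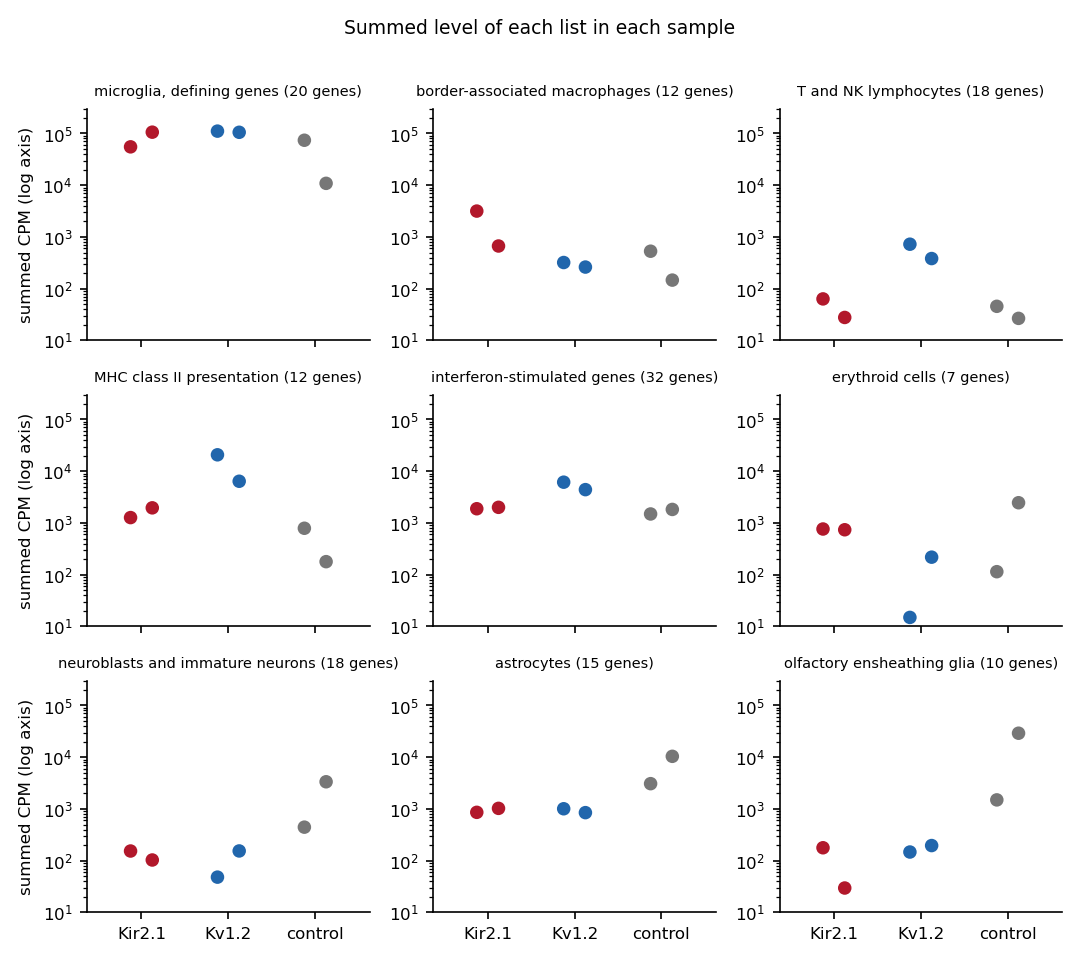
Summed level (CPM, log axis) of 9 cell type and pathway lists in each sample, Kir2.1 in red, Kv1.2 in blue and control in grey. The Kv1.2 samples are highest for MHC class II (20755 and 6395 CPM), lymphocyte and interferon-stimulated genes, Kir2.1 replicate 1 for border-associated macrophages, and the neuronal list is highest in control.

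Genes that carry the electrical and Ca2+ response of neurons were mostly too low for the test. Of 16 genes for Kv1 subunits and partners 3 were tested, of 15 inward rectifier genes 2, and of 25 genes for voltage-gated Na+ and Ca2+ channels 3. Kcnd1, which encodes an A-type channel, had 36.1 CPM in each Kir2.1 sample and 0 counts in the other 4 libraries, at least 298-fold higher than in Kv1.2. Cacnb4, a Ca2+ channel beta subunit, had 0.191 and 0.0903 CPM in Kir2.1 against 24.1 and 5.69 CPM in Kv1.2, which is 3 counts against 372. Kcnd1 passed the minimum through the Kir2.1 samples only and Cacnb4 through the Kv1.2 samples only, so that the filter fixed their direction. Kcnk13, the potassium leak channel of microglia, overlapped at 107 and 25.1 CPM in Kir2.1 against 54.9 and 36.7 CPM in Kv1.2.

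Of 11 tested genes for calmodulin, Ca2+/calmodulin kinases and calcineurin, 4 lay above and 1 below, none reached an unadjusted p under 0.05, and the median log2 fold change was 1.2, which was 0.46 without Kir2.1 replicate 1 and 0.65 without Kv1.2 replicate 2. Ppp3ca, a catalytic subunit of the Ca2+-dependent phosphatase calcineurin, had 159.7 and 77.1 CPM in Kir2.1 against 55.5 and 47.5 CPM in Kv1.2. Ppp3cb, the other catalytic subunit on the list, had 116.5 and 79.5 CPM in Kir2.1 against 45.8 and 32.9 CPM in Kv1.2. Calm2, a calmodulin gene and the most abundant of the list, overlapped at 3470 and 4434 CPM in Kir2.1 against 3001 and 3486 CPM in Kv1.2. In the study's panel of Ca2+ and CaMKII genes 4 of 6 were tested, Camk2b, Camk2g, Calm3 and Cacna1d, and all 4 overlapped between the groups. The study's panels were drawn up for these same samples, so their counts are not independent evidence.

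Among CREB and its cofactors, which turn Ca2+ signals into transcription, 5 of 15 tested genes lay above and 1 below, with a median log2 fold change of 0.68. The median was 0.40 without Kir2.1 replicate 1, 1.29 without Kir2.1 replicate 2 and 1.95 without Kv1.2 replicate 2. Creb1 itself had 35.5 and 46.9 CPM in Kir2.1 against 50.5 and 0.989 CPM in Kv1.2, and the coactivators Crebbp and Ep300 overlapped too. Kcnip3, a Ca2+-binding repressor also known as DREAM, had 0.191 and 0.0903 CPM in Kir2.1 against 15.3 and 49.6 CPM in Kv1.2, 3 counts against 794. Of the 15 genes, Kcnip3 passed the minimum through the Kv1.2 samples only and 1 other through the Kir2.1 samples only. The filter fixed the direction of both. Of 28 immediate early genes 8 were tested, and 2 of these, Jun among them, passed through the Kir2.1 samples only. The filter fixed the direction of these 2. Jun had 7.27 and 6.95 CPM in Kir2.1, 0 counts in Kv1.2 and 41.3 and 15.3 CPM in control, whereas Klf6 had 46.4 and 45.3 CPM in Kir2.1 against 146 and 123 CPM in Kv1.2 (log2 fold change -1.55 ± 0.53). Fos was under 0.3 CPM in all 4 samples.

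Cell death genes lay on both sides. Of 26 tested genes of the BCL2 family and the caspases, 6 lay above and 8 below, with 2 higher and none lower at an unadjusted p under 0.05. By sign alone 16 were higher and 10 lower, with a median log2 fold change of 0.58, which ran between 0.094 and 0.72 over the alternatives. Of the 26 genes, 1 passed the minimum through the Kir2.1 samples only, so that the filter fixed its direction. Casp6, an effector caspase, had 102 and 116.5 CPM in Kir2.1, 29.8 and 33.0 CPM in Kv1.2, and 59.9 and 25.8 CPM in control (log2 fold change 1.80 ± 0.63). Casp1, the inflammasome caspase, lay the other way at 293 and 277 CPM in Kir2.1 against 487.5 and 402 CPM in Kv1.2 (-0.64 ± 0.31), and the antiapoptotic Bcl2a1 copies, which share near-identical sequence, also lay below. In the study's apoptosis panel 4 of 13 lay above and 4 below, with a median of 0.66.

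Neuronal panels of the study left few genes to compare. Of the genes matched in the count table, 15 of 63 in its neuronal differentiation panel were tested, with 2 above and 4 below, as were 3 of 21 in its migration panel and 3 of 25 in its dendritic morphogenesis panel. Mdk, the growth factor midkine of immature cells, had 0 counts in both Kir2.1 samples, 5.24 and 10.7 CPM in Kv1.2, and 90.6 and 528 CPM in control. Map2, a dendritic microtubule protein, had 10.9 and 31.2 CPM in Kir2.1, 0.636 and 0.165 CPM in Kv1.2, and 111.5 and 631 CPM in control. In both genes the 4 channel libraries were far under the control libraries. Of the 15 tested differentiation genes, Map2 passed the minimum through the Kir2.1 samples only and 2, Mdk among them, through the Kv1.2 samples only. The filter fixed their direction, and with it part of the panel's counts above and below. Mdk was also the 1 such gene of the migration panel.

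Short, abundant transcripts of the basic machinery lay lower in Kir2.1 by a small margin. Of 81 tested cytosolic ribosomal protein genes 50 lay below and 2 above, 11 were lower at an unadjusted p under 0.05, and the median log2 fold change was -0.54. Rps4x, a small-subunit protein, had 131 and 185 CPM in Kir2.1 against 410.4 and 362 CPM in Kv1.2 (-1.29 ± 0.36), and Rps18 had 242 and 248 CPM against 501 and 539 CPM (-1.09 ± 0.30). The nuclear genes of oxidative phosphorylation gave the same picture, with 48 of 77 below, 4 above, 8 lower at an unadjusted p under 0.05 and a median of -0.53. Cox8a, of complex IV, had 431.5 and 467 CPM in Kir2.1 against 768.5 and 806 CPM in Kv1.2 (-0.81 ± 0.27). The 15 mitochondrially encoded genes did not share it, with 3 below, 1 above and a median of -0.04.

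The proteasome, which degrades ubiquitinated proteins, followed with 17 of 38 below, 2 above, 6 lower at an unadjusted p under 0.05 and a median of -0.58. Its activator gene Psme2, which interferon induces, had 459 and 448 CPM in Kir2.1, 1186 and 1043 CPM in Kv1.2, and 514 and 430 CPM in control (-1.30 ± 0.27). Psmd11, of the regulatory particle, had 36.1 and 9.57 CPM in Kir2.1 against 256 and 143.5 CPM in Kv1.2. Of the 38 proteasome genes, 1 passed the minimum through the Kv1.2 samples only, so that the filter fixed its direction. Of the study's 9 housekeeping genes 3 lay below, namely Gapdh, Rpl27 and Actb, and 6 overlapped, with a median of -0.17. Actb, the cytoskeletal actin, had 975 and 1253 CPM in Kir2.1 against 1643 and 1581 CPM in Kv1.2 (-0.53 ± 0.27).

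Long transcripts lay on the other side. Among 28 splicing and RNA-binding protein genes 10 lay above and 2 below, with a median of 0.43, which was 0.22 without Kir2.1 replicate 1. Srrm2, a scaffold protein of the spliceosome, had 298 and 199 CPM in Kir2.1 against 75.6 and 90.0 CPM in Kv1.2 (1.58 ± 0.44). Among 23 tested chromatin regulators 7 lay above and 1 below, with a median of 0.90, which was -0.27 without Kir2.1 replicate 1 and 1.42 without Kir2.1 replicate 2. Of these 23, 1 passed the minimum through the Kir2.1 samples only, so that the filter fixed its direction. Atrx, a chromatin remodeler, had 194 and 141 CPM in Kir2.1 against 56.0 and 40.4 CPM in Kv1.2 (1.80 ± 0.52), and Kmt2c, a histone methyltransferase, had 143 and 95.1 CPM against 15.9 and 33.7 CPM (2.26 ± 0.75). Malat1, a nuclear noncoding RNA and the most abundant of its list, had 11790 and 8893 CPM in Kir2.1 against 7909 and 7211 CPM in Kv1.2 (0.45 ± 0.27).

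TGF-beta signaling, on which the microglial identity depends, held 5 of 14 tested genes above and 1 below, with a median of 1.13, or 0.32 without Kir2.1 replicate 1. Tgfbr1, a receptor, had 2224 and 1104 CPM in Kir2.1, 584 and 880.5 CPM in Kv1.2, and 911 and 182 CPM in control (1.18 ± 0.45). Ski, a repressor of SMAD proteins, had 124 and 85.5 CPM in Kir2.1 against 21.9 and 18.1 CPM in Kv1.2 (2.39 ± 0.73). Id2, a target of the pathway, lay below at 36.9 and 36.8 CPM in Kir2.1 against 107 and 186 CPM in Kv1.2 (-1.99 ± 0.59).

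The fold change followed exonic length across the transcriptome. In 5 equal groups of 8253 protein-coding genes by exonic length, the median log2 fold change was -0.33, -0.05, 0.23, 0.44 and 0.68 from the shortest to the longest. In the shortest group 534 genes lay below and 185 above, and in the longest 124 lay below and 544 above. The Spearman correlation across genes, which are not independent replicates, was 0.239, and between 0.146 and 0.259 with single samples left out. The median exonic length was 1756 bases for the oxidative phosphorylation genes, 1770 bases for the ribosomal protein genes, 12600 bases for the chromatin regulators and 4040 bases for all genes tested. Processed and other pseudogenes, which are short, showed 266 of 596 below and 54 above. Between the 2 Kir2.1 replicates the median difference ran between -0.15 in the shortest and 0.48 in the longest group, and between the Kv1.2 replicates it ran between -0.02 and 0.04. Median exonic length was also short for T and NK (1741 bases), MHC class II (2568), activated microglia (2638) and MHC class I genes (3139). It was long for TGF-beta signaling (5552), calmodulin (6401) and CREB genes (6475). The genes that define microglia (2537) and the mitochondrially encoded genes (955) were short without a common direction. Length thus moved with these immune and signaling lists as well as with the ribosomal, respiratory, splicing and chromatin lists. Its part in their differences was not tested.

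**Figure D5:**
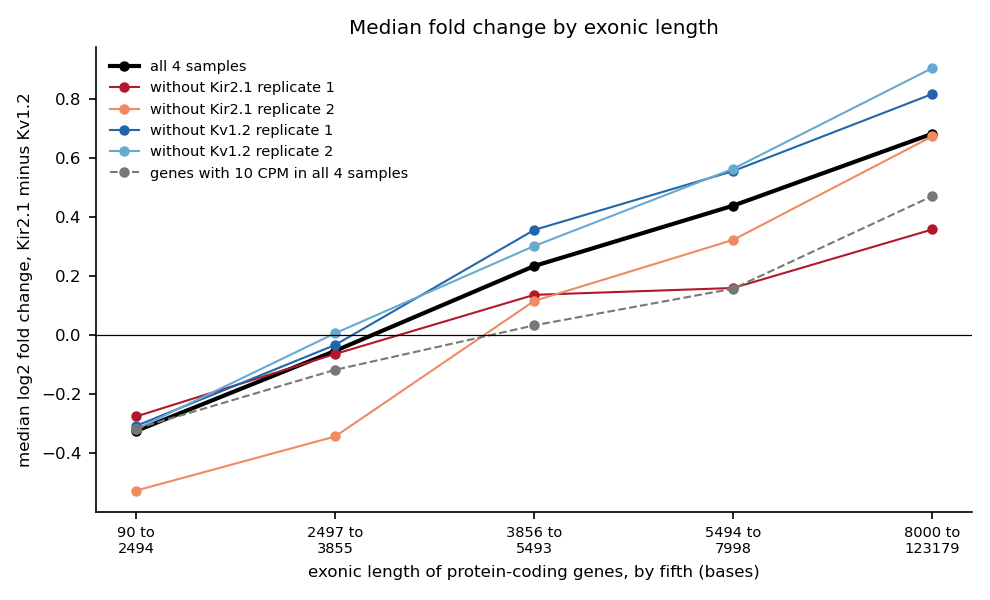
Median log2 fold change, Kir2.1 minus Kv1.2, of protein-coding genes in 5 equal groups by exonic length in bases, for all 4 samples (black), without each sample in turn (colours) and for genes with 10 CPM in all 4 samples (grey, dashed). Every line rises from the shortest to the longest group, and the line without Kir2.1 replicate 1 is the flattest of the leave-one-out lines.

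Haemoglobin genes, whose RNA comes from red blood cells, gave a measure of blood in the sorted samples. The erythroid list summed to 764 and 739 CPM in Kir2.1, 14.9 and 218 CPM in Kv1.2, and 114 and 2460 CPM in control. Of 4 tested globin genes 3 lay above, and as near-identical copies they can share reads. Both Kir2.1 samples lay above both Kv1.2 samples, and the part of blood in the other lists was not tested.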

How the data were processed

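RNA was amplified from at least 3000 sorted cells a sample (SMART-Seq v4, then Nextera XT from 150 pg with 12 PCR cycles) without strand information. The study's methods describe single-end reads and GEO's labels paired-end reads from another sequencer, and this was not resolved. Per the submitters' processing notes the authors used STAR 2.7.0f, SAMtools 1.9, Subread 1.6.4 and edgeR 3.24.3 in R 3.5.2 on GRCm38. The authors deposited raw counts per gene with no normalization, the unit used here. Their 2 comparison tables (fold changes, p-values, false discovery rates) and their CPM, FPKM and TPM tables were not used, and 0 columns of the count table were left out.

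Genes with 1 CPM in at least 2 of the 4 samples were scaled by TMM and tested with edgeR 4.0.16 (quasi-likelihood, limma 3.58.1, R 4.3.3) between the labelled groups, with Benjamini-Hochberg adjustment over 9832 genes and a threshold of 0.05. DESeq2 1.42.0, a likelihood ratio test, other scalings and minimums, a replicate block and each sample left out were alternatives, and the pipeline was tested on simulated data. CPM values use TMM-scaled library sizes. Bounds set a group at 0 to 3 counts, and 95% exact binomial intervals cover counting error only. Library totals were 8871595 to 13632970 counts, and the spread between the 2 pools of a group limits the precision beyond counting error. Gene positions are those of GENCODE on GRCm38, where 4077 of 9832 tested genes overlap another gene, and promoter windows are those of RefSeq, GRCm38.p6.

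The comparison, its gene lists and the list members were chosen with earlier results of these data known. Named genes are the targeted genes, the 15 genes higher and 15 lower with the smallest p among those with 10 CPM in both samples of the higher group and groups that do not overlap, from each list up to 4 tested genes by smallest p and up to 3 by highest level, and genes the study names. Cd86, Creb1, H2-Eb1, Ifit1, Ifit2, Ifit3, Il1a, Klrd1, Lck, Nlrc5, Psme2, Rsad2, Tap1, Tap2 and Trem2 fall outside this rule and were chosen after their values were seen. Ciita, Fos, Gzma, Trac and Tubb3, which were not tested, fall outside it too. A few genes are not reported here.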

Additional observations from a re-analysis of the deposited data

How the results depend on the processing

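Genes past the adjusted threshold numbered 441 with DESeq2, 226 with the likelihood ratio test, 59 with no count minimum, 1 with 1 CPM in all 4 samples and 0 in the quasi-likelihood fit. Genes higher at an unadjusted p under 0.05 numbered 1389 with no minimum, 87 with 1 CPM in at least 3 samples, 203 in all 4, 258 with 10 CPM in at least 2, and 62 to 613 with single samples left out. Genes lower numbered 749, 153 and 189 under the first 3 of these, and 36 to 595 with single samples left out. The replicate numbers did not pair the samples (r = -0.0036 across 9832 genes), and the fit with the replicate block called 0 genes, with 160 higher and 158 lower unadjusted and medians of -8.20 for T and NK genes and 0.58 for calmodulin genes. The median of all genes was 0.28 with library size only, -0.045 with upper quartile scaling, 1.03 with no minimum and -0.059 to 0.17 with single samples left out. With no minimum the list medians were -3.19 (T and NK), 4.66 (border-associated macrophages), -1.26 (activated microglia), -4.21 (MHC class II) and -0.62 (oxidative phosphorylation). With 1 CPM in at least 3 samples, in all 4, and 10 CPM in 2, they were -2.88, -2.69 and -8.07 (T and NK), -0.73, -0.68 and -1.22 (activated microglia), and 0.50, 0.56 and 0.50 (calmodulin), and chemokines turned to 0.14 with 1 CPM in all 4. Library size only gave 0.32 (microglia), -0.32 (oxidative phosphorylation), -0.36 (ribosomal), 0.16 (mitochondrially encoded), with a log2 fold change of Cd86 of 0.091, and upper quartile scaling gave -0.64 and -0.65 for oxidative phosphorylation and ribosomal genes, with a log2 fold change of Cst3 of -0.013.

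With single samples left out, the medians ran between -11.45 and -2.02 for T and NK genes, -4.75 and -2.68 for MHC class II, -1.33 and -0.85 for MHC class I, -1.65 and -0.72 for interferon-stimulated genes, -1.49 and -0.74 for activated microglia, -0.41 and 0.19 for microglia, 1.22 and 4.24 for border-associated macrophages, -0.27 and 1.42 for chromatin regulators, 0.32 and 1.22 for TGF-beta signaling, 0.46 and 1.22 for calmodulin genes and -0.13 and 0.17 for mitochondrially encoded genes. Single genes ran between -0.50 and 7.52 (Kcnj2), -0.51 and 0.38 (Cd86), -0.45 and 0.78 (P2ry12), -0.13 and 0.34 (Cst3) and -0.85 and 1.25 (Kcnk13). Of 128 genes fitted singly, 35 moved by over 1.5 times and 5 of these turned in direction when 1 sample was left out. The Kv1.2 libraries held 16912 and 18222 genes without thinning, and r between the Kir2.1 replicates was 0.533 over genes with 10 CPM in 1 sample. The counts of list members and the length trend without single samples were chosen after seeing the data. Where the minimum differed or a sample was left out, the genes tested and the members behind a list median could differ too. The cause of these changes was not tested.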
